A study of Rattus norvegicus with 6 samples.

Results

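Smooth muscle genes encode the actins, myosins and actin-binding proteins that set smooth muscle apart from striated muscle. The 9 genes Acta2, Actg2, Tagln, Cnn1, Myl9, Myh11, Smtn, Cald1 and Lmod1 were examined through every array probe that carried one of their symbols. These were 15 of 30367 probes. All 15 were among the 19300 probes (63.6%) bright enough to be tested. A probe was tested if 1 group or both had it well above background on each of their 3 arrays.

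The samples were heart primordia, the tissue that becomes the embryonic heart, dissected from Wister rat embryos at E10. A primordium was placed in the pre-heartbeat group when its centre was flat and the embryo had 3 to 4 somites, and in the post-heartbeat group when its centre was raised and there were 4 to 5 somites. Shape stood in for beating on the basis of earlier ex vivo work, the first and second heart fields were not separated, and the labels name no treatment and no altered allele in either group. Each group had 3 samples, which the submitters call biological replicates, and each sample was hybridised to 1 one-color array.

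Signals are given on the log2 scale after the 75th percentile of each array was set to 0. Before this shift it lay at 1145.76 to 1701.98 intensity units on the 6 arrays, whose small number limits the precision. They came from 2 slides. Of the post-heartbeat arrays, replicates 1 and 2 were on slide 1 with pre-heartbeat replicate 1, and replicate 3 was on slide 2 with pre-heartbeat replicates 2 and 3. In a principal component analysis of all tested probes, the slides parted along the first component (60.3%) and the groups along the second (16.6%). Differences are therefore given from limma without a block and from limma with the slide as a block. All 12 genes of a list of cardiac muscle markers, among them Nkx2-5, Tnnt2 and Myh6, were bright enough to be tested, so the defining markers of the labelled tissue were present.

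In smooth muscle, calcium activates myosin light chain kinase, which phosphorylates the regulatory light chain so that smooth muscle myosin can pull on actin filaments. Calponin, caldesmon and transgelin bind the actin filament, and leiomodin starts new filaments. Many of these genes are switched on by serum response factor (SRF) and its partner myocardin at a sequence called the CArG box. Smooth muscle actin and transgelin are also known to be transcribed for a time in the muscle cells of the early heart tube, before their transcripts become restricted to smooth muscle.

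The probes for Tagln, Cnn1, Myl9 and Myh11 are shown because 5 of the 6 smooth muscle probes that passed the test with the slide as a block are among them. They are written 5′ to 3′, and the capitals in the first Myh11 probe mark the stop codon with which the coding sequence ends.
Tagln: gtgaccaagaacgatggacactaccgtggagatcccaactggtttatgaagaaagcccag
Cnn1: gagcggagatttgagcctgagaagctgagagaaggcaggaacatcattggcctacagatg
Myl9: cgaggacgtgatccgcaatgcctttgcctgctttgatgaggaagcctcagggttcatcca
Myh11, 3′ end: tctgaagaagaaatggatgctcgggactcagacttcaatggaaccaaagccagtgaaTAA
Myh11, upstream: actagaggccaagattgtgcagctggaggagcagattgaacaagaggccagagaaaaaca
On the rn4 genome, the array annotation puts the Tagln probe at chr8:48902736-48903116 on the minus strand, where its 60 bases are split by 321 bases of intron. The Cnn1 probe lies at chr8:21219991-21220050 on the plus strand within 1 exon. The Myl9 probe lies at chr3:147192749-147193232 on the plus strand, split by 424 bases of intron. Both Myh11 probes lie on the plus strand of chromosome 10, the one at the 3′ end at chr10:775993-776052 and the one upstream at chr10:769544-770044, which is split by 441 bases of intron.

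Of the 9 genes, Acta2, Tagln, Cnn1, Myl9 and both probes of Myh11 had a higher signal on each post-heartbeat array than on any pre-heartbeat array, by 1.72 to 2.17 fold. The same held for 1 of 2 probes of Lmod1. In both probes of Smtn the groups overlapped, and Actg2 and Cald1 had lower means after heartbeat initiation. At a limma adjusted p under 0.05 without a block, 0 of the 15 probes were called higher (background 0.119% of tested probes) and 0 were called lower (background 0.0207%). Without adjustment, 7 probes of 6 genes had a limma p under 0.05 with a higher post-heartbeat signal (background 3.91%) and 0 with a lower one (3.09%). With the slide as a block, limma called 6 probes of the 5 genes Acta2, Tagln, Cnn1, Myl9 and Myh11 higher (background 1.15%) and 0 lower (0.456%). None of these 6 calls was kept when pre-heartbeat replicate 1 or post-heartbeat replicate 3 was left out. In bulk tissue, a change in the number of cells that express a gene and a change in RNA per cell cannot be told apart.

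**Figure D1:**
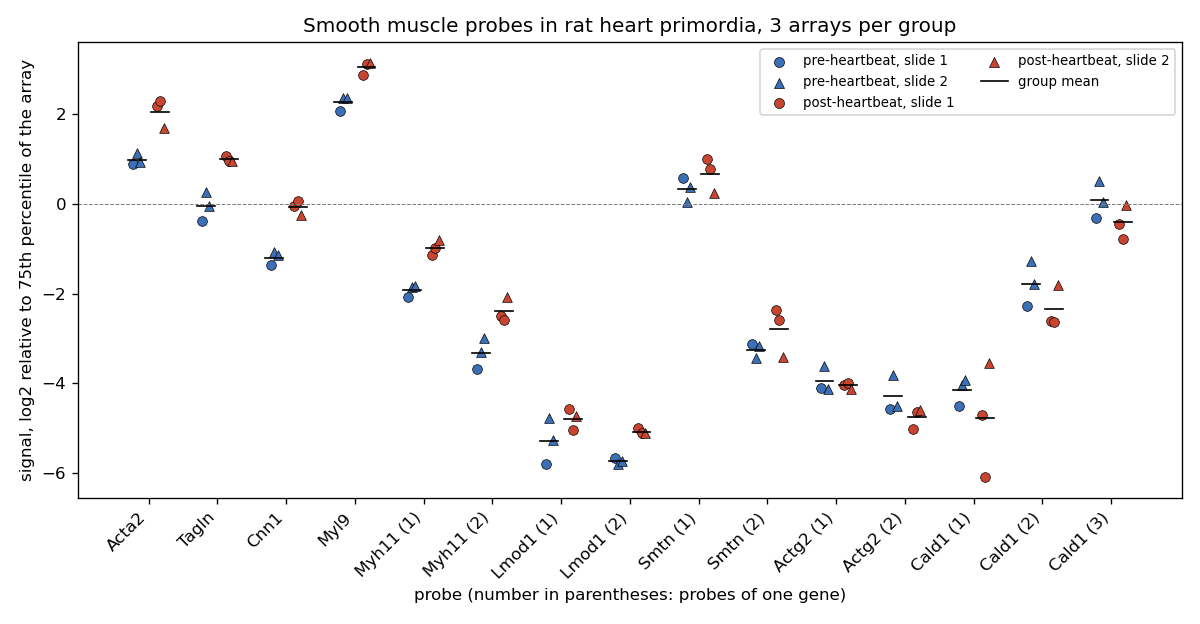
Signal of each smooth muscle probe on each array (y axis, log2, 75th percentile of each array at 0; blue, pre-heartbeat; red, post-heartbeat; circles, slide 1; triangles, slide 2; bars, group means of 3 arrays). The groups separate upward for Acta2, Tagln, Cnn1, Myl9, both Myh11 probes and Lmod1 (2), and heights of different probes cannot be compared as levels.

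Acta2 encodes the smooth muscle alpha-actin of the contractile filament. Its signal was 0.89, 1.14 and 0.95 on pre-heartbeat arrays 1 to 3 and 2.19, 2.29 and 1.696 on post-heartbeat arrays 1 to 3. The groups did not overlap, and the lowest post-heartbeat value was that of slide 2. The mean went from 0.99 ± 0.13 (SD, n = 3) to 2.06 ± 0.32 (SD, n = 3). This 2.09-fold difference (log2 1.07, SE 0.19) had a limma adjusted p of 0.121 without a block. In the fit blocked by slide it was 2.001 fold (log2 1.001, SE 0.18, limma adjusted p = 0.0429). Within slide 1 the log2 difference was 1.35, and within slide 2 it was 0.65.

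Actg2, the enteric smooth muscle gamma-actin, did not share this pattern. Its probes start at bases 1147 and 1161 of the same transcript and share 46 bases, so they are not independent measurements. The first, at chr4:117732497-117732556 on the minus strand (rn4), read -4.11, -3.60 and -4.14 before and -4.03, -3.997 and -4.11 after heartbeat initiation. These values overlapped (log2 difference -0.10, SE 0.18, limma adjusted p = 0.886), and without pre-heartbeat replicate 2 the difference was 0.076. The second, at chr4:117732483-117732542, read -4.56, -3.80 and -4.50 before and -5.01, -4.63 and -4.60 after. It was the only smooth muscle probe lower on each post-heartbeat array, against 6.13% of all tested probes (log2 difference -0.46, SE 0.24, limma adjusted p = 0.863). Its highest post-heartbeat value, -4.60, lay just below its lowest pre-heartbeat value, -4.56. Both probes were dim, with processed signals between 37.6 and 98.3 intensity units.

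Among the proteins bound to the thin filament, Tagln encodes transgelin (SM22), an actin-bundling protein. The Tagln probe read -0.37, 0.27 and -0.032 before and 1.07, 0.97 and 0.96 after heartbeat initiation. The groups did not overlap. The post-heartbeat arrays lay close together, while the pre-heartbeat arrays spread widely with the slide 1 array lowest. The difference was 2.06 fold (log2 1.04, SE 0.19, limma adjusted p = 0.120), and in the fit blocked by slide 2.16 fold (log2 1.11, SE 0.17, limma adjusted p = 0.0262).

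Cnn1, calponin of smooth muscle, inhibits the myosin ATPase on actin. Its signal was -1.37, -1.06 and -1.14 before and -0.039, 0.066 and -0.24 after heartbeat initiation. This was the smooth muscle gene with the highest fold and the lowest adjusted p in limma without a block, 2.17 fold (log2 1.12, SE 0.16, adjusted p = 0.0732). Blocking by slide left its size in place (log2 1.12, SE 0.16, limma adjusted p = 0.0196). The difference was 1.38 within slide 1 and 0.86 within slide 2.

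Cald1 encodes caldesmon, which blocks myosin binding to actin and has a long smooth muscle form and a shorter non-muscle form. Its 3 probes lie on the plus strand of chromosome 4, and the array annotation names the non-muscle form for the first, at chr4:62126457-62126516. That probe read -4.49, -4.04 and -3.93 before and -4.71, -6.10 and -3.54 after heartbeat initiation. It was not well above background on post-heartbeat replicate 2, the lowest of these values, and without that array the log2 difference was 0.033 in place of -0.63. The slides differed in sign for this probe, at -0.91 within slide 1 and 0.45 within slide 2. The second probe (chr4:62148325-62148384) had a log2 difference of -0.58 and the third (chr4:62156739-62156798) of -0.49. In each of the 3 probes the groups overlapped (limma adjusted p = 0.866), and blocking by slide brought the differences to -0.23, -0.32 and -0.29. No caldesmon probe was higher beside calponin and transgelin, and the interval of the third (95% confidence interval -1.14 to 0.16) does not reach the sizes seen for them.

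Lmod1, leiomodin of smooth muscle, nucleates actin filaments. Its probes on the plus strand of chromosome 13 were the dimmest, at 16.1 to 80.9 intensity units per spot. The probe at chr13:48364507-48364566 read -5.67, -5.80 and -5.74 before and -4.998, -5.11 and -5.11 after heartbeat initiation. These groups did not overlap and differed by 1.58 fold (log2 0.66, SE 0.13, limma adjusted p = 0.156, 0.0649 with the block). The probe at chr13:48360886-48360945 read -5.81, -4.77 and -5.26 before and -4.58, -5.05 and -4.73 after, with groups that overlapped (log2 0.49, SE 0.28, limma adjusted p = 0.866). The 2 spots of a probe on 1 array differed by up to 0.94 on the log2 scale for the former and 0.67 for the latter. With normexp background correction, the log2 differences were 0.18 and 0.15.

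Smtn encodes smoothelin, a marker of contractile smooth muscle. The probe at chr14:84160581-84160640 on the minus strand read 0.58, 0.045 and 0.39 before and 1.02, 0.79 and 0.24 after heartbeat initiation, and the one at chr14:84165650-84165709 read -3.13, -3.44 and -3.17 before and -2.37, -2.59 and -3.41 after. In both, the 2 post-heartbeat arrays of slide 1 lay above all pre-heartbeat arrays and the post-heartbeat array of slide 2 did not. The log2 differences were 0.34 (SE 0.24) and 0.46 (SE 0.28), each with a limma adjusted p of 0.866. Within slide 2 they were 0.027 and -0.10.

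In the thick filament, Myh11 encodes the smooth muscle myosin heavy chain, regarded as the most specific marker of the lineage. Its probe at the 3′ end, shown above with the stop codon, read -2.08, -1.85 and -1.83 before and -1.14, -0.99 and -0.81 after heartbeat initiation. The probe upstream read -3.67, -3.29 and -2.99 before and -2.49, -2.60 and -2.06 after. Both probes separated the groups. They gave the same size, 1.92 fold each (log2 0.94, SE 0.15 and 0.23), with limma adjusted p = 0.0999 at the 3′ end and 0.255 upstream. Blocked by slide, the log2 differences were 1.02 and 1.11 (limma adjusted p = 0.0159 and 0.0163). The Myh11 differences were alike on both slides, at 1.02 within slide 1 and 1.03 within slide 2 at the 3′ end, and at 1.13 and 1.08 upstream.

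Myl9 encodes the regulatory light chain that is phosphorylated when smooth muscle contracts. Its signal was 2.07, 2.37 and 2.36 before and 2.88, 3.12 and 3.14 after heartbeat initiation. The groups did not overlap, at 1.72 fold (log2 0.78, SE 0.16, limma adjusted p = 0.164). Blocking by slide gave 1.81 fold (log2 0.85, SE 0.14, limma adjusted p = 0.0310). It was 0.93 within slide 1 and 0.78 within slide 2.

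**Figure D2:**
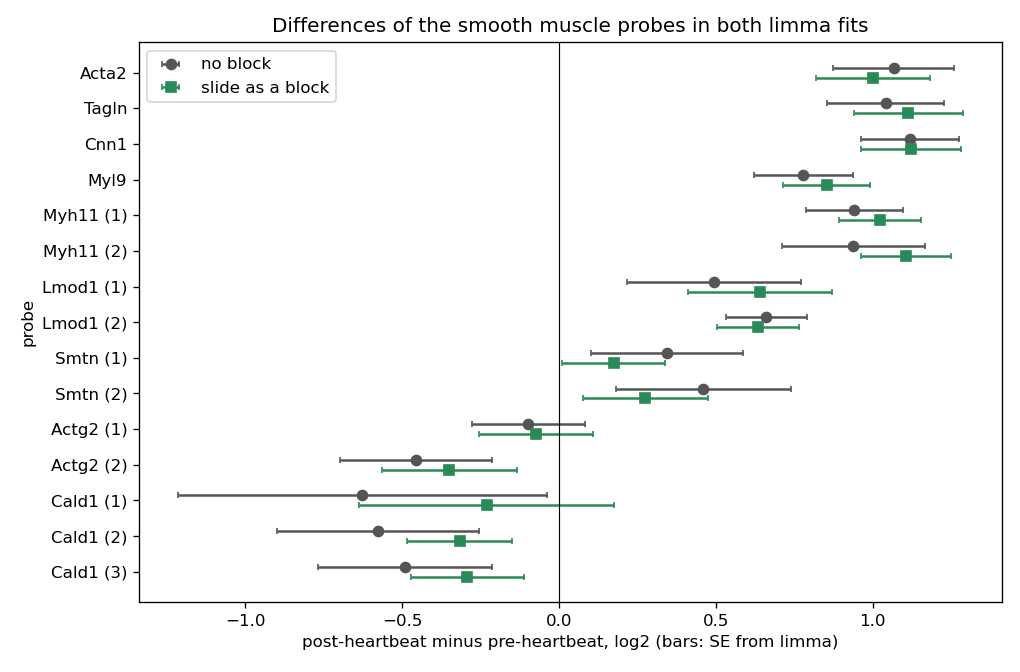
Post-heartbeat minus pre-heartbeat difference of each smooth muscle probe (x axis, log2; points, estimates; bars, SE from limma; circles, no block; squares, slide as a block; 3 arrays per group). Acta2, Tagln, Cnn1, Myl9 and Myh11 lie between 0.78 and 1.12 without the block, and the Actg2 and Cald1 probes lie below 0 in both fits.

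Over the 15 probes the median log2 difference was 0.49 (0.63 with the slide as a block), against -0.033 (-0.017) over all 19300 tested probes. The difference was above 0 in 10 of 15 probes, against 44.7% of tested probes above 0. The groups did not overlap in 7 probes with a higher post-heartbeat signal (background 5.38%) and in 1 with a lower one (6.13%). For a single probe, the smallest two-sided exact permutation p that 3 against 3 arrays allow is 0.1, and these 8 probes reached it. The methods' selection, which asks for a fold of at least 1.5 and an unadjusted Tukey HSD p under 0.05, took 7 probes of 6 genes as higher (background 1.89%) and 0 as lower (1.15%). After Benjamini-Hochberg adjustment 0 smooth muscle probes passed the methods' test, with adjusted p from 0.182 to 0.886.

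Both slides carried both groups, so the difference was also taken within each slide. It was above 0 on both slides in 9 of 15 probes of 7 genes, where 24.7% of all tested probes did so, and below 0 on both in 3 probes, where 25.2% did. The 6 probes called with the slide as a block were all among the 9. The log2 differences of Acta2, Tagln and Cnn1 were 1.35, 1.38 and 1.38 within slide 1 and 0.65, 0.84 and 0.86 within slide 2. A part of the slide in this was not tested. Each array was then left out in turn from the fit with the slide as a block. Without pre-heartbeat replicate 2 or 3, limma called 6 smooth muscle probes each time, and 436 and 333 of all tested probes. Without post-heartbeat replicate 2 it called 4, and 321 of all tested probes. Without post-heartbeat replicate 1 it called 2, and 139 of all tested probes. Without pre-heartbeat replicate 1 or post-heartbeat replicate 3, each the sole array of its group on its slide, 0 were called by limma, and over all tested probes 6 and 1 were. The log2 differences of Acta2 in these 6 fits ranged from 0.65 to 1.35 and those of the Myh11 probe at the 3′ end from 0.99 to 1.06.

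**Figure D3:**
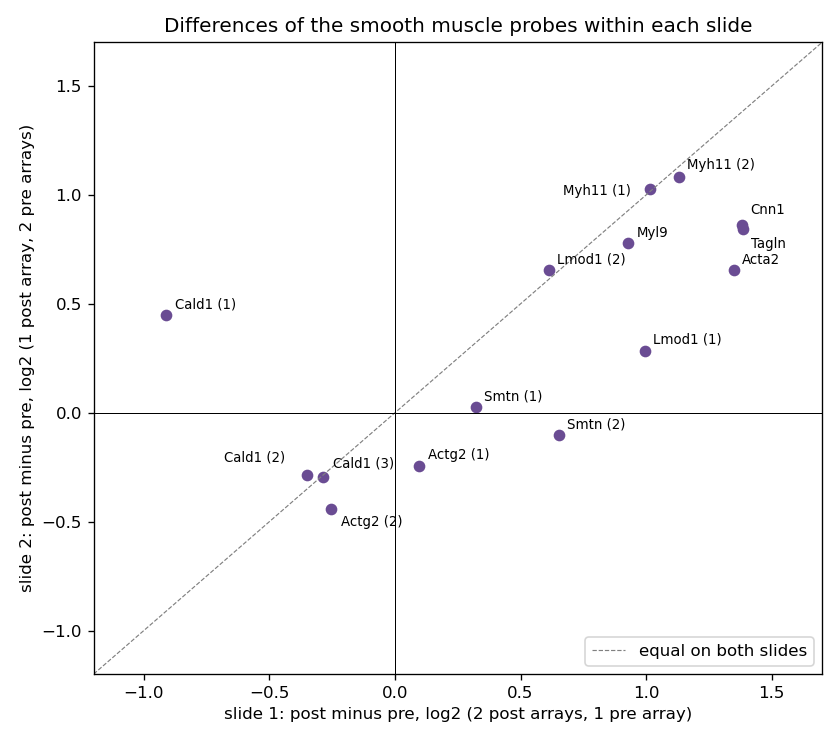
Post-heartbeat minus pre-heartbeat difference of each smooth muscle probe within slide 1 (x axis) and within slide 2 (y axis), both log2, with 1 array in the smaller group on each slide; the dashed line marks equal differences. Myh11, Myl9 and Lmod1 (2) lie near the line, and Acta2, Tagln and Cnn1 lie below it but above 0 on both axes.

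The relatives of these genes, taken as other members of the same protein families and the tropomyosins, were examined next. Of 23 relatives, 20 were tested. Over these 20 the median log2 difference was 0.10 (0.17 with the slide as a block). Without the block limma called 0, and with it 3 higher (background 1.15%) and 0 lower (0.456%). The 3 were Acta1, the skeletal muscle actin (2.22 fold, limma adjusted p = 0.107, 0.0179 with the block), Lmod2, the leiomodin of striated muscle (2.68 fold, 0.0688, 0.00995), and Tpm1, alpha-tropomyosin (1.67 fold, 0.292, 0.0486). The other Tpm1 probe had a log2 difference of -0.24, so the probes of this gene, which has many splice forms, did not move together. For the relatives listed in the next sentence, the groups overlapped. The log2 differences were 0.065 for Actb and -0.18 for Actg1 among actins, -0.14 for Cnn3 among calponins, 0.14 for Tagln2 among transgelins, -0.00023 for Myl6, 0.045 for Myl12a and 0.21 for Myl12b among light chains, and 0.23 for Myh9, -0.18 for Myh10 and 0.14 for Myh14 among heavy chains. Actc1, the cardiac actin, stood at 0.41 (limma adjusted p = 0.866) and Tagln3 at 0.63 (0.170). Smtnl2 differed by 0.71 and 1.11 in its probes (0.305 and 0.309), and Smtnl1 by -0.055. Tpm2, Tpm3 and Tpm4 stood at -0.17, -0.28 and -0.0086.

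**Figure D4:**
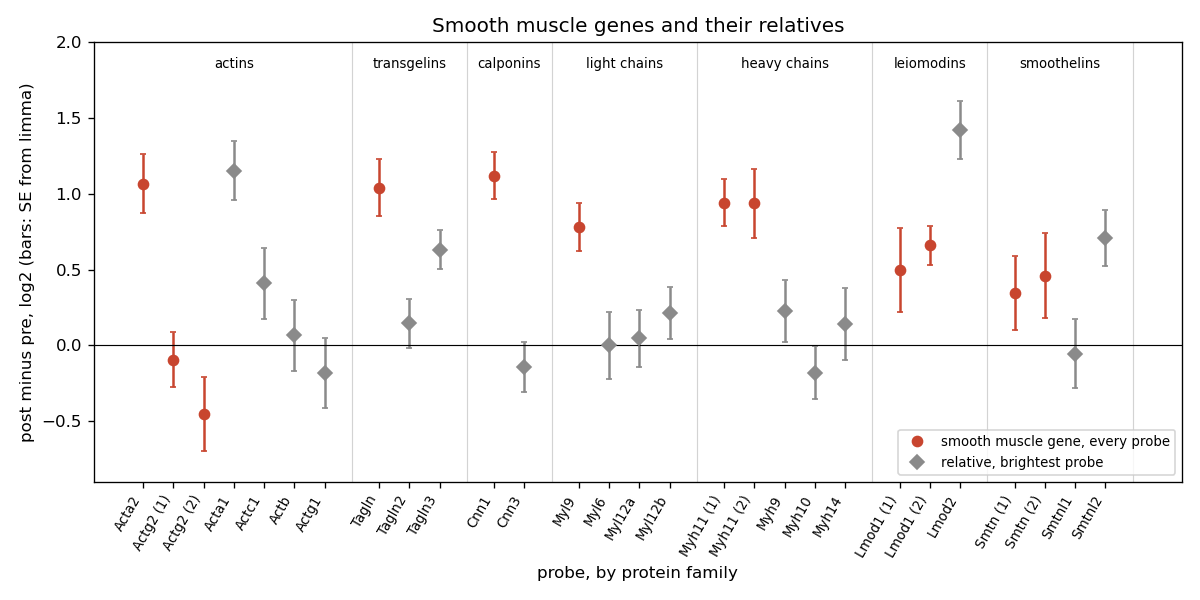
Post-heartbeat minus pre-heartbeat difference (y axis, log2; bars, SE from limma without a block) of every probe of the smooth muscle genes (red circles) and of the brightest probe of their tested relatives (grey diamonds), by protein family. Cnn1, Myl9 and Myh11 stand above the relatives shown in their families, which lie between -0.18 and 0.23, and Acta1 and Lmod2 of striated muscle stand as high as or above Acta2 and Lmod1. Cald1 and the tropomyosins are not shown.

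For smooth muscle genes with a tested relative in the same family, the brightest probe was also set against that of each such relative on the same array. The scaling of the array cancels from this ratio. Of 20 such ratios, 10 were higher on each post-heartbeat array than on any pre-heartbeat array, 2 were lower and 8 overlapped. With 3 arrays per group their exact permutation p could not go below 0.1. The share of such ratios among other pairs of probes was not computed. Several ratios use the same smooth muscle probe, so they are not independent of each other or of the differences given above. Cnn1 to Cnn3 was 2.40 times as high in the post-heartbeat group as before (within slides, log2 differences of 1.32 and 1.08). Acta2 to Actg1 was 2.38 times as high (1.19 and 0.84), Acta2 to Actb 2.0 times (0.89 and 0.68), and Myh11 to Myh10 2.18 times (1.39 and 0.87). Tagln to Tagln2 was 1.86 times as high (0.96 and 0.91) and Myl9 to Myl6 1.72 times (0.55 and 0.85). In these 6 ratios the groups did not overlap (exact permutation p = 0.1 each), and the ratios concern unequal change only. Acta2 to Acta1, in contrast, changed by less than its spread (0.943 times, exact permutation p = 0.8), and Acta2 to Actc1 overlapped between the groups (1.58 times, p = 0.2 in the exact permutation test). The groups also overlapped for Myh11 to Myh9 (1.64 times) and to Myh14 (1.74 times) and for Lmod1 to Lmod2 (0.526 times), with an exact permutation p of 0.2 each. The 2 lower ratios were Actg2 to Acta1, at 0.421 times its earlier value, and Actg2 to Actc1, at 0.705 times (exact permutation p = 0.1 each).

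Genes that control smooth muscle contraction were read next. All 16 of this list were tested, with a median log2 difference of 0.017 (0.071 with the slide as a block). Without the block limma called 0, and with it 3 higher (background 1.15%) and 0 lower (0.456%). Kcnmb1, the beta subunit of the calcium-activated potassium channel of smooth muscle, differed by 0.87 (limma adjusted p = 0.372, 0.0457 with the block) and was dim. Mrvi1 (now Irag1), a target of the cGMP-dependent kinase at the calcium store, differed by 0.81 and 0.79 in its probes (0.271 and 0.386, 0.0475 and 0.0421 with the block). Prkg1, that kinase itself, differed by 0.40 with groups that overlapped, and by 0.73 with the block (0.866 and 0.0471).

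Among 18 tested regulators of smooth muscle genes, 0 were called by the brightest probe in limma with or without the block. At an unadjusted limma p under 0.05 without a block, 2 were higher (background 3.91%) and 1, Prrx1, was lower (3.09%). The 2 were Csrp1 (log2 difference 0.64, limma adjusted p = 0.293, 0.0922 with the block) and Fhl2 (0.63, 0.338, 0.0788). Over the 18 the median log2 difference was 0.26. Srf, the factor that binds the CArG box, differed by 0.44 (SE 0.25, limma adjusted p = 0.866), and Myocd, its muscle partner, by 0.22 (SE 0.22, 0.866). Mkl1, the related partner that senses free actin, differed by 0.32 and 0.38 in its probes (0.866 and 0.775). Mkl2 was not analysed here. Prrx1, a homeobox factor of mesenchyme, had a log2 difference of -1.67 in its brighter probe (limma adjusted p = 0.266, 0.0520 with the block) and of -1.78 in its dimmer one (0.203 and 0.0324), which stood clear of background on all pre-heartbeat and 2 of the 3 post-heartbeat arrays. A list of 14 other SRF targets of the cytoskeleton, all tested, had a median of 0.32 (0.20 with the block). With the block, 1 gene was called higher (background 1.15%). It was Ankrd1, a stretch-responsive protein of cardiac muscle, at 1.88 fold (limma adjusted p = 0.155, 0.0252 with the block).

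Promoter windows from RefSeq on GRCr8, 250 bases before to 50 after the start, were at hand for 5 of the 9 genes in 6 windows, namely Acta2, Actg2, Cnn1, Smtn and Cald1, which had 2. Each was searched for the CArG box, read as a pair of C, then 6 bases that are each A or T, then a pair of G. This box reads alike on both strands. An exact box was found in 0 of the 6 windows, against 1.63% of 33365 rat promoter windows. With up to 1 base off, a box was found in 3 windows, against 21.2% of all. Acta2 had 2 such boxes, as did 3.77% of all windows with 2 or more, and Smtn and 1 window of Cald1 had 1 each, while Actg2 and Cnn1 had 0. The Acta2 and Cnn1 windows upstream of the start are shown because these genes had similar differences on the arrays, one with boxes and the other without, and capitals mark boxes with 1 base off.
Acta2, chr1:241172504-241172753, minus strand: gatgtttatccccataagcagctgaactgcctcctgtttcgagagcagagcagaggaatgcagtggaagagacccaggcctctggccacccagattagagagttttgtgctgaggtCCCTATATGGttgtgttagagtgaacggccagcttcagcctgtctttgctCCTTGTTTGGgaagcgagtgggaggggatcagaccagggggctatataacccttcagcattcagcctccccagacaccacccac
Cnn1, chr8:28908187-28908436, plus strand: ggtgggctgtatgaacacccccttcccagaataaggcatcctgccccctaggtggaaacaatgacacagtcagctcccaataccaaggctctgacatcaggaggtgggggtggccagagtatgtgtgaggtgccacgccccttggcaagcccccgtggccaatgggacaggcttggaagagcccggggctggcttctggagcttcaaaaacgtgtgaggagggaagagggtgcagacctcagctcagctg
The Acta2 boxes, CCCTATATGG and CCTTGTTTGG, begin 134 and 84 bases before the start. A match describes the letters and says nothing of binding in these samples. Tagln, Myl9, Myh11 and Lmod1 had no entry in the promoter table.

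Markers of other cell types were read beside these genes, as signals summed over the brightest tested probe of each gene in multiples of the 75th percentile. The means of the cardiac muscle markers were also higher after heartbeat initiation. Of 12 cardiac genes, 6 were called higher with the slide as a block (limma), the median log2 difference was 0.79, and the summed signal was 277.7 to 449.8 before and 535.7 to 644.3 after heartbeat initiation. The 6, with folds from limma without the block, were Myl3 (2.33 fold), Myh7 (2.16), Mybpc3 (2.05), Myl4 (1.99), Myh6 (1.89) and Actn2 (1.79). In that fit their limma adjusted p ran from 0.0688 to 0.305, and 0 of the 12 cardiac genes were called. Blocked by slide, the limma adjusted p of these 6 ran from 0.0182 to 0.0324. Tnnt2 (log2 difference 0.28), Ttn (0.56) and Nkx2-5 (0.67) were not called and had groups that overlapped. Within slide 2, Nkx2-5 stood at -0.00055. Myl7 (0.61), Tnnc1 (0.63) and Tnni1 (0.73) were not called either, though higher on each post-heartbeat array. The part of cardiac muscle cells in the smooth muscle signals was not tested.

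Mural cells, the smooth muscle cells and pericytes of vessel walls, had 7 of 9 marker genes tested. The sum was 2.87 to 3.34 before and 4.44 to 5.58 after, and without Des, its brightest gene, 1.828 to 1.95 and 2.19 to 2.24. The median log2 difference was 0.21, and 0.050 with the slide as a block. Of the 7, Cspg4 (log2 difference 1.90, limma adjusted p = 0.0987, 0.0281 with the block) and Des (1.17, 0.163, 0.0324), which heart muscle also expresses, were called higher with the block (background 1.15%). Pdgfrb (0.15), Rgs5 (0.29), Notch3 (0.21), Mcam (-0.11) and Anpep (-0.26) were not, and Abcc9 and Kcnj8 were too dim to be tested. The part of mural cells in the smooth muscle signals was not tested.

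Of the proepicardial markers, 4 of 6 were tested and 0 called, and their sum overlapped between the groups (1.09 to 1.40 before, 1.204 to 1.497 after), with Wt1 and Upk3b too dim to be tested. This sum was mostly Upk1b (log2 difference 0.12). The dim Tbx18, not well above background on pre-heartbeat replicate 2, stood higher on each post-heartbeat array (log2 difference 1.61, limma adjusted p = 0.314, 0.169 with the block), and Tcf21 (-0.52) and Aldh1a2 (0.41) were not called. Endothelial markers had a lower sum after (11.2 to 12.9) than before (15.98 to 16.97) with 0 of 7 tested genes called, and endoderm markers likewise (30.8 to 38.7 against 45.38 to 49.95, 0 of 6 called). These sums were mostly Kdr and Ttr. Without Kdr the endothelial sum overlapped between the groups (2.31 to 3.36 before, 2.40 to 2.79 after), with a median log2 difference of -0.20 over the list, 1.76e-05 with the block and 0.50 for Tie1. Without Ttr the endoderm sum overlapped as well (5.94 to 13.13 and 6.76 to 9.53). Paraxial mesoderm markers summed to 21.6 to 23.9 before and 25.2 to 26.6 after with 0 of 5 called, and erythroid ones to 0.595 to 1.43 and 1.58 to 1.82 with 0 of 3 called. The erythroid sum was mostly Hbb (log2 difference 1.22), while Alas2 stood at -0.61 and Klf1 at -0.25. Of 3 neural ectoderm genes tested, Otx2 fell by 1.56 on the log2 scale (limma adjusted p = 0.0199). The sum was 6.35 to 7.31 before and 2.48 to 2.99 after, and was mostly Otx2. Without Otx2 it overlapped between the groups (0.404 to 1.225 before, 0.484 to 0.858 after). Sox2 stood at -0.21 and Hoxb1 at 0.54, each with groups that overlapped. The part of these cells in the smooth muscle signals was not tested either.

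Over the 6 arrays, the genes with a probe that followed the brightest probe of Acta2 most closely were Crygd (Pearson r = 0.996), Pygm (0.991) and Hspb2 (0.990). For Tagln they were Prg2 (0.997), Rgs5 (0.995) and Rab3d (0.994). These values share the group difference and the slides, and are a description of 6 arrays only. Rgs5 followed Tagln in shape but with a smaller log2 difference, 0.29 against 1.04.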

How the data were processed

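Total RNA of 6 heart primordia samples, 3 per group, was labeled with Cy3 and hybridized to 1-color Agilent rat arrays, which the authors quantified with Agilent Feature Extraction 10.7.3.1. The deposited processed signal is an intensity per spot, with background subtracted and no normalization between arrays. The authors also deposited a ratio per probe, shifted to the 75th percentile and divided by a baseline. Apart from a shift common to the probes, 100% of them agreed between both kinds of values to within 0.01 (log2). With the ratios, the median log2 difference over all tested probes was -0.051 in place of -0.033. That of Acta2 was 1.048 in place of 1.066.

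Outlier and control spots were left out. Each array was shifted on the log2 scale by its 75th percentile, and spots of the same probe were averaged. Groups were compared in limma 3.58.1 (R 4.3.3, data.table version 1.17.8) over all tested probes with Benjamini-Hochberg adjustment at 0.05. A probe counted as above background on an array if at least 0.5 of its spots were. The limma fit without a block and the methods' test were run on simulated data that held no slide effect. The fit with the slide as a block was not tested in this way.

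The genes, the lists and the rule for naming genes were chosen with earlier results of these data known. Every probe of the 9 genes is given. From other lists, genes called with or without the slide as a block were named, with all tested relatives, Srf, Myocd, Mkl1 and the 3 genes most like Acta2 and Tagln. Csrp1, Fhl2 and uncalled markers of cell types were named outside this rule. Alternatives were a replicate or slide block, normexp (offset 50), quantile normalization, other percentile sets and filters, the authors' ratios, the methods' test, an intensity trend, 1 value per gene and leaving out arrays. Ratios to relatives, and leaving out arrays under the slide block, were added after the values had been seen.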

Additional observations from a re-analysis of the deposited data

How the results depend on the processing

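Without a block, limma called 0 smooth muscle probes, and 7 had an unadjusted p under 0.05. The number called higher was 6 when blocked by slide, 7 in the methods' selection and 1 (Cnn1) with the replicate block, with normexp background correction and with an intensity trend. It stayed 0 under the other alternatives and with each array left out, and 0 were called lower under any. Their median log2 difference was between 0.30 (normexp) and 0.78 (1 value per gene), and between 0.39 and 0.68 with each array left out. Over all tested probes, 23 were higher and 4 lower. These counts became 222 and 88 when blocked by slide, 95 and 49 with the replicate block, 43 and 7 with normexp, 38 and 7 with an intensity trend, 365 and 222 in the methods' selection, 0 and 0 in the methods' test after adjustment, and 1 and 0 with no filter. With quantile normalization 11 were higher and with the authors' ratios 10. With each array left out, 0 to 1 were higher and 0 to 1 lower. The causes were not tested. The sign turned for Actg2 without pre-heartbeat replicate 2 (0.076, range -0.19 to 0.076) and for Cald1 without post-heartbeat replicate 2 (0.033, range -1.25 to 0.033, and -0.91 to 0.45 under the slide block). Same-numbered arrays of the groups correlated at 0.648, -0.277 and 0.494 in their deviations, so the numbers were not taken as pairs. Under the replicate block, Cnn1 had a limma adjusted p of 0.0436. Over the fits of all arrays and those with an array left out without a block, the adjusted p ranged from 0.0429 to 0.525 for Acta2, from 0.0262 to 0.489 for Tagln, from 0.0196 to 0.378 for Cnn1, from 0.0310 to 0.707 for Myl9 and from 0.0159 to 0.473 for the 3′ probe of Myh11. With an array left out under the slide block it ranged from 0.0332 to 0.461, 0.0177 to 0.361, 0.0195 to 0.266, 0.0339 to 0.367 and 0.0182 to 0.217 in the same order. Signal over background limits the Lmod1, Actg2 and first Cald1 probes.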
